A study of Mus musculus with 24 samples.

Results

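Glycolysis and hypoxia response genes were followed through 2 kinds of cultured mouse macrophage. The set has 32 named genes, found by symbol among the 47643 genes of the deposited count table, and it runs from the glucose transporter Slc2a1 to the lactate transporters, with the hypoxia-inducible factor Hif1a and a group of genes known to follow it. All 32 had enough reads to be tested, among 15000 tested genes. RNA was sequenced from macrophages grown out of pluripotent stem cells made by reprogramming (iPSC-derived) and from bone marrow-derived macrophages. Each source was sampled at day 0 without co-culture and at days 3, 6 and 12 of co-culture, with 3 replicates in each of the 8 groups. The study's design text calls the replicates independent and says that the day 0 cultures came from the same batch and served as controls. Strain, genotype, sex, age, the iPSC line and the cells of the co-culture were not given in the sources used here. Since every day 0 library is without co-culture and every later library is with it, time and co-culture cannot be told apart in a comparison with day 0. In these bulk libraries, fewer cells of a type and less RNA per cell cannot be told apart either.

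Glycolysis splits glucose into pyruvate in the cytosol, and lactate dehydrogenase turns pyruvate into lactate when it is not oxidised in mitochondria. When oxygen is short, prolyl hydroxylases stop marking HIF-1α for destruction by the VHL ubiquitin ligase, and the stabilised protein pairs with ARNT on DNA and raises transcription of most glycolytic enzymes. Macrophages are known to use the same switch when they are activated, also with oxygen present.

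Library totals lay between 5839316 and 11805478 counts, with a median of 9020788, and the log expression of replicates correlated at 0.945 to 0.983. Markers of macrophages were abundant everywhere: the summed level of 8 such genes, among them Csf1r and Cd68, was 6649.8 to 9632 CPM (counts scaled to 1e+06 per library) in the iPSC-derived day 0 libraries and 40698 to 43542 CPM in the bone marrow-derived ones. In co-culture the range was 9896 to 32496 CPM and 25666 to 33727 CPM. Markers of neurons (10 genes) summed to 1.29 to 3.39 CPM at day 0 and 15.4 to 66.3 CPM in co-culture. Markers of fibroblasts (7 genes) reached 382 to 826 CPM in the iPSC-derived day 6 libraries, against 33.1 to 63.4 CPM in the bone marrow-derived ones. Summed astrocyte markers (8 genes) moved from 15.1 to 50.6 CPM at day 0 to 65.6 to 103 CPM at day 12, and oligodendrocyte markers (9 genes) from 73.0 to 139.8 to 159 to 313 CPM. Neuron genes Dcx and Nefl were at 0 in all iPSC-derived day 0 libraries, and Syt1, Rbfox3 and Nefl in all bone marrow-derived ones. Microglia markers (9 genes) went from 897 to 1803 CPM at day 0 to 6091 to 9684 CPM at day 12. The part of these other cells' RNA in the results was not tested.

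The 2 sources moved in opposite directions. Shares given here are summed CPM after scaling with TMM factors, so they may differ from shares of raw counts. At day 0 the 32 genes together made up 1.88% in iPSC-derived macrophages (1.84% to 1.90% over 3 libraries) and 0.42% in bone marrow-derived macrophages (0.404% to 0.448%). At day 3 the shares were 0.586% and 1.36%, so the order of the sources had turned over. By day 12 they were 0.776% and 0.696%. Without scaling factors, the median log2 difference between sources over all genes moved by -0.22 at day 12. The shares therefore do not settle the order of the sources at that day.

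Against their own day 0, iPSC-derived macrophages had 23 of the 32 genes lower and 1 higher at day 3, where 8.14% and 11.2% of all tested genes were called lower and higher (edgeR quasi-likelihood test, adjusted p below 0.05). The counts were 19 lower and 0 higher at day 6, beside 11% and 14.3% of all genes. At day 12 they were 20 lower and 1 higher, beside 10.7% and 14%. The median log2 fold change of the 32 genes was -1.19, -1.28 and -1.25 at the 3 days, and that of all tested genes was between 0.04 and 0.09. Of the 32, 26 had their highest mean at day 0, a count that was not made over all tested genes.

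Bone marrow-derived macrophages had 26 genes higher and 0 lower at day 3, beside 11.9% and 6.61% of all tested genes. At day 6 the counts were 21 higher and 2 lower, beside 12.7% and 6.89%, and at day 12 they were 18 and 2, beside 14.7% and 9.08%. The medians of the 32 genes were 1.64, 1.17 and 0.71 on the log2 scale. Of the 32, 29 had their lowest mean at day 0 and 27 their highest at day 3, counts that were not made over all tested genes.

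A test of the difference between the 2 changes called 28 of the 32 genes at day 3, 25 at day 6 and 23 at day 12, in each case with the iPSC-derived change below the bone marrow-derived one. Over all tested genes, 11.5%, 11.1% and 11% were called in that direction, and 9.03%, 8.62% and 9.07% in the other. At day 3, 19 genes fell in one source and rose in the other: Slc2a1, Hk1, Gpi1, Pfkl, Pfkp, Aldoa, Tpi1, Gapdh, Pgk1, Pgam1, Eno1, Pkm, Ldha, Slc16a3, P4ha1, P4ha2, Egln3, Bnip3 and Mif. The same pair of calls was made for 285 of the 15000 tested genes, or 1.90%. The summed macrophage markers also moved between day 0 and day 3, upwards in the iPSC-derived libraries (6649.8 to 9632 CPM, then 23309 to 27234 CPM) and downwards in the bone marrow-derived ones (40698 to 43542 CPM, then 30184 to 33727 CPM). Lyz2 weighs most in that sum, with 3457079 counts over all libraries against 781047 for Csf1r. Gene by gene, 5 of the 8 were higher and 0 lower in iPSC-derived macrophages at day 3 (median log2 change 1.06), beside 11.2% and 8.14% of all tested genes. In bone marrow-derived macrophages 4 were higher and 1 lower (median 0.56), beside 11.9% and 6.61%, so most called markers rose while the sum fell. The part of these markers in the result was not tested.

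**Figure D1:**
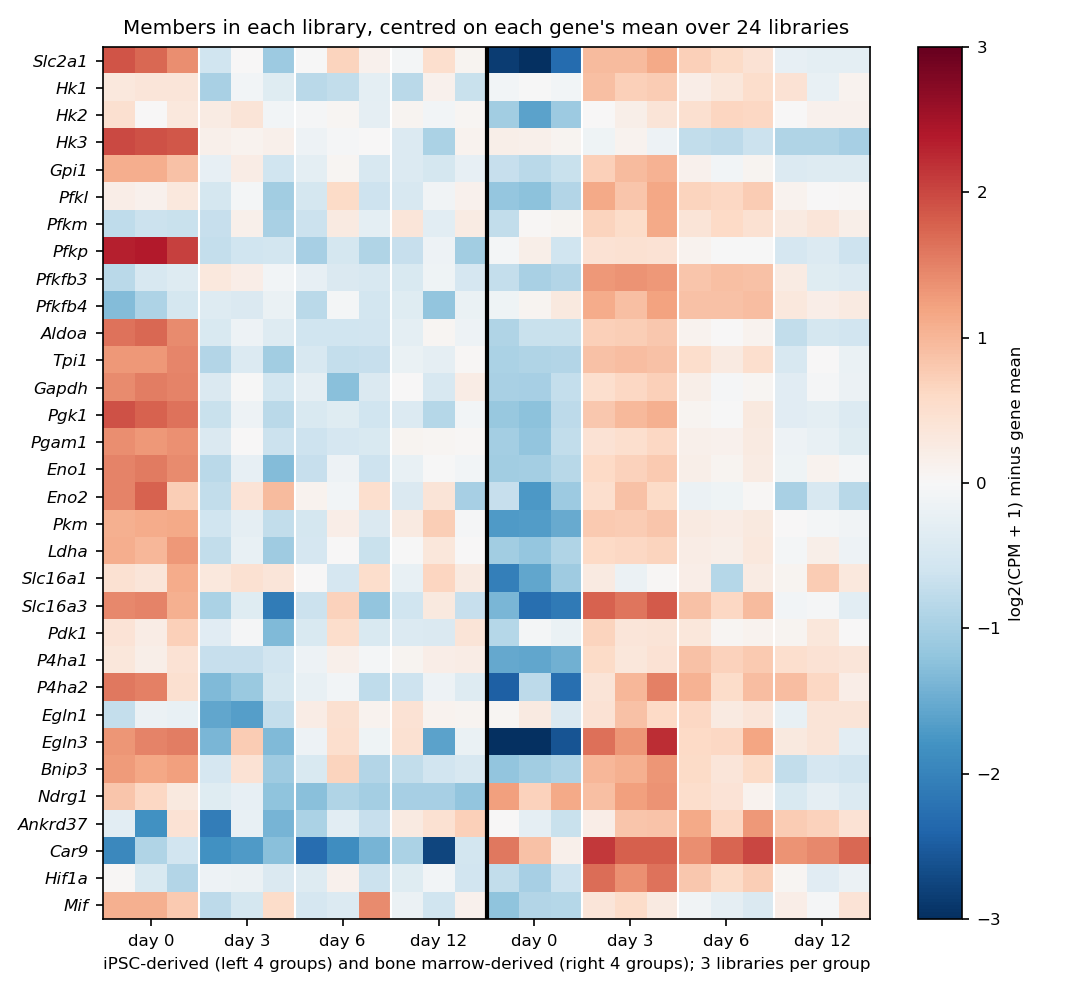
Expression of the 32 genes (rows) in each of the 24 libraries (columns, 3 per group), as log2(CPM + 1) minus the gene's mean over all libraries, with red above and blue below that mean and the colours capped at 3 either way. The iPSC-derived day 0 columns are red for most rows and the bone marrow-derived day 0 columns blue, and the bone marrow-derived day 3 columns are red in most rows.

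**Figure D2:**
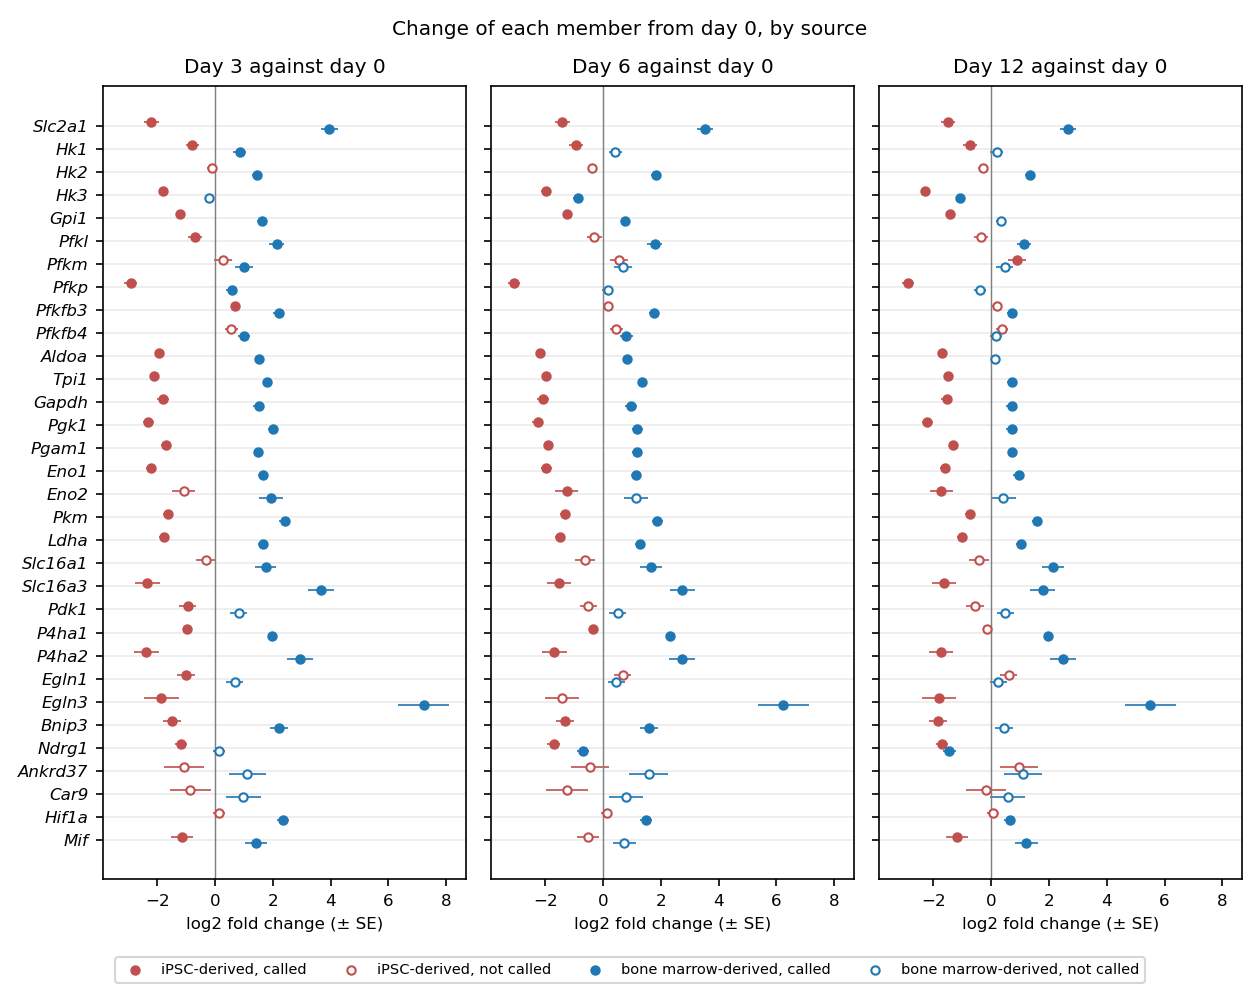
Log2 fold change from day 0 of each gene at days 3, 6 and 12, with its standard error, in iPSC-derived (red) and bone marrow-derived (blue) macrophages; filled points passed the test. At day 3 most red points lie left of 0 and most blue points right of it.

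Promoter windows of the members were searched for a short DNA word. The core of the hypoxia response element, the DNA word that HIF binds, reads ACGTG or GCGTG. It was searched for on both strands, as CACGT and CACGC on the other, in the 250 bases before each RefSeq transcription start (GRCm38.p6), and words that overlap, as in CACGTG, count as 1 site. Of the 32 genes, 31 had a window, and 20 of them (64.5%) held ACGTG in at least 1 window, against 24.6% of the 10618 tested genes with a window and 18.5% of the 27025 genes of the table. A gene can have more than 1 window. Counted per window, ACGTG was in 53.5% of the 43 member windows and in 16.6% of all 32851 windows. With GCGTG counted too, the shares were 87.1% of the members, 59.98% of the tested genes and 41.5% of the table. Taking each gene's highest window, the median number of CpG pairs was 17 both over the members and over the tested genes. The median GC content, taken per gene in the same way, was 64% and 60.8%. Many of these genes are textbook HIF targets, so the word's frequency here is a description, and a match is not evidence of binding. Shown here are 120-base stretches for 5 genes that rose in bone marrow-derived macrophages at day 3, for Hk2, which rose there and was not called in iPSC-derived macrophages, and for Hk3, which fell in both sources at days 6 and 12. Each reads 5′ to 3′ in the direction of its gene, and capitals mark the core words on either strand.

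Pgk1: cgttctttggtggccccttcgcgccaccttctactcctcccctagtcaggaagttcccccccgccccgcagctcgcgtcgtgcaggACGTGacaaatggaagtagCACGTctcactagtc
Ldha: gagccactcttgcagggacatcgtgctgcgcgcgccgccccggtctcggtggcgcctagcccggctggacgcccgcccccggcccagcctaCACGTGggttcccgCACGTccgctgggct
Bnip3: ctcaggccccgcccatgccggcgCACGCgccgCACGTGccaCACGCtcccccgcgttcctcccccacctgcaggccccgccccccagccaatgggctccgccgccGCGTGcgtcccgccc
P4ha2: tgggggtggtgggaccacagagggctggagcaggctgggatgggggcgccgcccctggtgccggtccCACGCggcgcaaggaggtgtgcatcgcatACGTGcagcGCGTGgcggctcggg
Egln3: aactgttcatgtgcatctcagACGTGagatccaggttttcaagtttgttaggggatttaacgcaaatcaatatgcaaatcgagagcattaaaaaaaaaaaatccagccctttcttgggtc
Hk2: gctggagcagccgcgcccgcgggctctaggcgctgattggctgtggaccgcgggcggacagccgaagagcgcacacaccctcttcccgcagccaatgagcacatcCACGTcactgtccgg
Hk3: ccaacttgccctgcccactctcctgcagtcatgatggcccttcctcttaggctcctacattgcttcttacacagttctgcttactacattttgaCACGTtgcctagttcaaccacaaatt

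These stretches lie at chrX:106186864-106186983 on the forward strand (Pgk1), chr7:46845665-46845784 forward (Ldha), chr7:138909527-138909646 reverse (Bnip3), chr11:54100750-54100869 forward (P4ha2), chr12:54204005-54204124 reverse (Egln3), chr6:82774492-82774611 reverse (Hk2) and chr13:55021516-55021635 reverse (Hk3), all GRCm38. None overlaps an exon of GENCODE vM21. Bnip3 holds 4 core sites, P4ha2 has 3, Pgk1 and Ldha show 2 each, and the other stretches show 1. The Hk3 stretch holds the word as well, so genes with the word moved in more than 1 way. Every stretch shown was taken from a gene with a core word. Of the members with a window, 4 held no core word in any: Gpi1, Tpi1, Eno2 and Mif. Gpi1, Tpi1 and Mif were among the 19 genes that fell in iPSC-derived and rose in bone marrow-derived macrophages at day 3.

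Slc2a1 (chr4:119108711-119137983, forward strand) encodes GLUT1, the basal glucose transporter. Its level in the 3 iPSC-derived libraries was 245, 219 and 172 CPM at day 0, 42.8, 65.7 and 30.1 at day 3, 64.4, 104 and 71.1 at day 6 and 62.6, 92.8 and 69.3 at day 12. In bone marrow-derived libraries it was 8.12, 5.22 and 12.4 CPM at day 0, 126, 126 and 145 at day 3, 108, 97.6 and 88.5 at day 6 and 54.4, 52.9 and 53.0 at day 12. No co-culture library overlapped its own day 0, from below in one source and from above in the other. The log2 change at day 3 was -2.20 ± 0.26 (SE, adjusted p = 8.35e-07) in iPSC-derived and 3.95 ± 0.29 (adjusted p = 6.31e-10) in bone marrow-derived macrophages, and their difference was -6.15 ± 0.39 (adjusted p = 3.93e-11).

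The 3 hexokinase genes, whose enzymes trap glucose as glucose 6-phosphate, each took another course. Hk3 (chr13:55005985-55021385, reverse strand), the isoform of myeloid cells, stood at 987, 930.1 and 910.3 CPM in iPSC-derived macrophages at day 0, 276, 268 and 275 at day 3, 223, 242 and 251 at day 6 and 187, 129 and 266 at day 12. In bone marrow-derived macrophages it was 279, 273 and 264 CPM at day 0, 225, 268 and 222 at day 3, 148, 143 and 158 at day 6 and 132, 131 and 125 at day 12. The iPSC-derived day 0 libraries were far above all others, and both sources ended below their own day 0 with no overlap. Hk3 fell by day 12 in both, with log2 changes of -2.28 ± 0.17 and -1.07 ± 0.16 (adjusted p = 4.72e-10 and 1.86e-05). Hk2, the inducible isoform and a HIF target, was 37.9, 25.4 and 36.7 CPM in the bone marrow-derived day 0 libraries and 111, 125 and 122 CPM at day 6, a rise of 1.84 ± 0.17 (adjusted p = 2.61e-08). In iPSC-derived macrophages Hk2 averaged 97.7 ± 15.7 CPM (SD, n = 3) at day 0 and 91.5 ± 14.6, 75.7 ± 9.11 and 80.6 ± 4.62 CPM later, with log2 values of -0.10, -0.37 and -0.28 that did not pass the test. Hk1, the housekeeping isoform, fell in iPSC-derived macrophages by day 6 (-0.94 ± 0.23, adjusted p = 0.00368) and rose in bone marrow-derived ones at day 3 (0.86 ± 0.23, adjusted p = 0.00916). Its iPSC-derived call at day 3 was lost without day 3 replicate 1 (log2 -0.56), and that at day 12 without day 12 replicate 1 or 3 (-0.61 to -0.56).

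Measured per kilobase, Hk3 held the largest share of hexokinase RNA in every library, and its mean share was lower at day 12 than at day 0 in both sources. It was 91.2% ± 0.693 (SD, n = 3) of the 3 genes' summed counts per kilobase in iPSC-derived macrophages at day 0 and 72.8% ± 8.16 at day 12. In bone marrow-derived macrophages the share was 86.2% ± 1.06 at day 0 and 62.3% ± 1.56 at day 12. The Hk2 share went from 5.82% ± 0.773 to 19.6% ± 3.93 in iPSC-derived and from 6.52% ± 1.30 to 25.1% ± 1.85 in bone marrow-derived libraries. Without division by gene length, the bone marrow-derived Hk3 share at days 6 and 12 was 44.0% and 47.2%. These shares are a description without a test.

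Phosphofructokinase commits sugar to glycolysis, and its 3 subunit genes also took separate courses. Pfkp (chr13:6579768-6648777, reverse strand), the platelet-type subunit, was 242, 253 and 201 CPM in the iPSC-derived day 0 libraries and 28.6, 31.1 and 32 at day 3, 23.4, 32.9 and 25.1 at day 6 and 28.9, 42.3 and 22.6 at day 12. Every later library was below every day 0 library, with a log2 change of -3.10 ± 0.21 at day 6 (adjusted p = 2.07e-10). Bone marrow-derived Pfkp was 43.4 ± 11.4 CPM at day 0 and 64.8 ± 0.424 CPM at day 3, a called rise of 0.58 ± 0.20 (adjusted p = 0.0431) that was lost without day 0 replicate 1 or 3 or any 1 of the 3 day 3 replicates (log2 0.42 to 0.64). Pfkl, the liver-type subunit, rose in bone marrow-derived macrophages from 76.2, 72.0 and 93.5 CPM to 378, 307 and 382 CPM at day 3 without overlap (2.14 ± 0.26, adjusted p = 1.18e-06). In iPSC-derived macrophages it went from 199 ± 14 to 122 ± 41.9 CPM (-0.70 ± 0.25, adjusted p = 0.0488), a call lost without any 1 of 5 of the 6 libraries compared, day 3 replicate 2 being the exception (log2 -0.74 to -0.49), and with DESeq-type scaling (log2 -0.67). Pfkp overlaps Pitrm1, a gene on the opposite strand that took 46.8% of the counts of the pair, and 3.96% of the exon bases of Pfkp are shared with it. Pfkm, the muscle subunit, stayed low, at 10.5 and 15.5 CPM at day 0. Its calls, a rise in bone marrow-derived macrophages at day 3 (1.02 ± 0.31) and in iPSC-derived ones at day 12 (0.88 ± 0.31), were lost without bone marrow-derived day 0 replicate 1 or day 3 replicate 3 (0.81) and without any iPSC-derived library compared except day 12 replicate 2 (0.75 to 0.90), and the latter also without scaling factors (0.76). As a share of the 3 genes' counts per kilobase, Pfkp went from 33.6% ± 4.10 to 7.47% ± 2.65 in iPSC-derived and from 16.6% ± 5.19 to 6.92% ± 0.494 in bone marrow-derived macrophages between days 0 and 12.

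**Figure D3:**
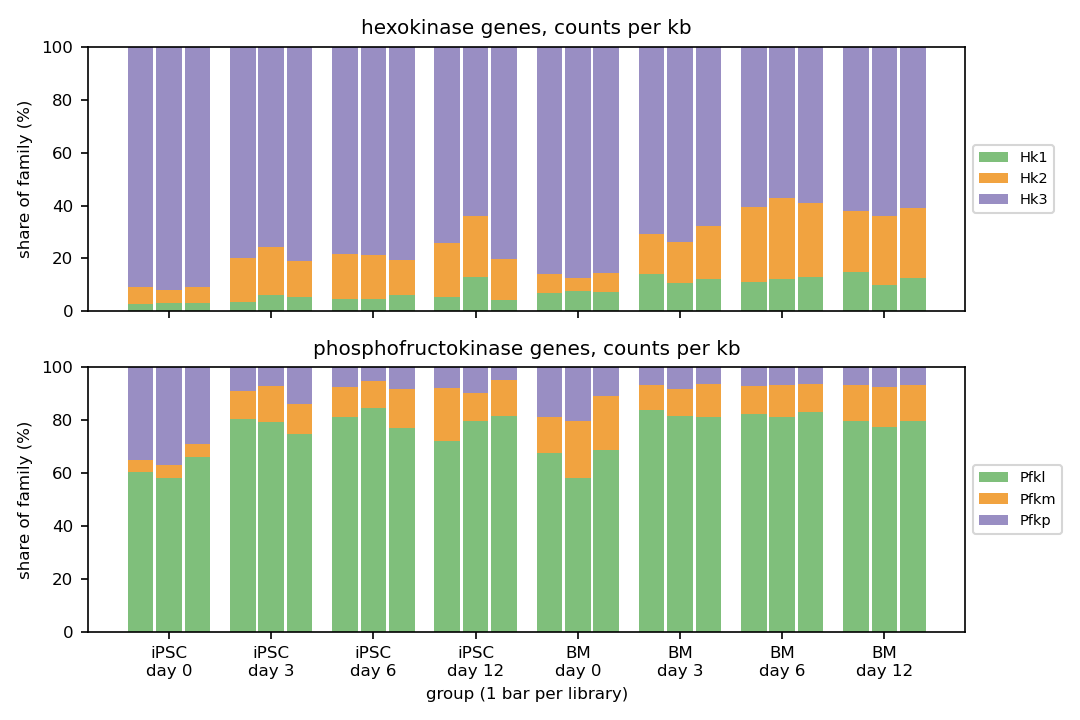
Share of each gene in its family's summed counts per kilobase (%), for the 3 hexokinase genes (top) and the 3 phosphofructokinase genes (bottom), with 1 stacked bar per library. Hk3 fills most of each hexokinase bar, and the Pfkp segment is widest in the iPSC-derived day 0 libraries.

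Pfkfb3 and Pfkfb4 make fructose 2,6-bisphosphate, the strongest activator of phosphofructokinase. Pfkfb3 was 36.2, 45.6 and 49.1 CPM at day 0 and 79.9, 74.1 and 60.3 at day 3 in iPSC-derived libraries, and 38.8, 32.1 and 34.4 CPM at day 0 and 159, 166 and 160.0 CPM at day 3 in bone marrow-derived ones. It was the one member that rose in both sources at day 3, by 0.71 ± 0.17 and 2.20 ± 0.18 on the log2 scale (adjusted p = 0.00412 and 2.25e-09), and the second rise was larger (difference -1.49 ± 0.24, adjusted p = 6.28e-05). Bone marrow-derived Pfkfb3 remained higher than day 0 at day 12 (0.72 ± 0.17, adjusted p = 0.00313), but not without day 12 replicate 1 (log2 0.47). Pfkfb4 rose in bone marrow-derived macrophages from 79.0 ± 12.0 to 158 ± 17.1 CPM at day 3 (1.0 ± 0.22, adjusted p = 0.00168). In iPSC-derived macrophages its values were 39.4 ± 10.6 and 58.2 ± 4.91 CPM (0.56 ± 0.22, adjusted p = 0.0757).

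Among the central enzymes, the 9 genes Gpi1, Aldoa, Tpi1, Gapdh, Pgk1, Pgam1, Eno1, Pkm and Ldha encode steps from glucose 6-phosphate to lactate that are not listed under phosphofructokinase. Together they reached 15723 ± 258 CPM (SD, n = 3) at day 0 in iPSC-derived macrophages, then 4496 ± 952, 4645 ± 503 and 6346 ± 513 CPM. The bone marrow-derived sums were 3090.5 ± 210.4, 10454 ± 427, 7085 ± 348 and 5396 ± 338 CPM. All 9 fell in iPSC-derived macrophages at each of the 3 days. All 9 rose in bone marrow-derived macrophages at days 3 and 6, and at day 12 the rise still passed the test for 7, with Gpi1 (0.33 ± 0.16, adjusted p = 0.144) and Aldoa (0.14 ± 0.12, adjusted p = 0.431) short of it. Gpi1 shares 11.5% of its exon bases with a gene on the opposite strand.

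Aldoa (chr7:126795234-126809108, reverse strand) encodes aldolase A, which splits the 6-carbon sugar. It was 3929.9, 4158 and 3358 CPM in the iPSC-derived day 0 libraries, 915, 1134 and 964 at day 3, 831, 833 and 844 at day 6 and 1028, 1326 and 1139 at day 12. Bone marrow-derived libraries held 673, 794 and 791 CPM at day 0, 2091, 2119.6 and 2231 at day 3, 1361, 1272 and 1366 at day 6 and 757, 879.8 and 850.0 at day 12. The bone marrow-derived peak at day 3 was clear of every other library of that source but stayed under the iPSC-derived day 0 libraries. Changes at day 3 were -1.93 ± 0.12 and 1.51 ± 0.12 (adjusted p = 4.18e-11 and 1.66e-09).

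Pkm (chr9:59656368-59679375, forward strand) encodes pyruvate kinase M, which makes pyruvate and ATP. Its level was 2836, 2948 and 3009 CPM in iPSC-derived libraries at day 0, 893, 1125 and 809 at day 3, 946, 1563 and 1014 at day 6 and 1639, 2276 and 1328 at day 12. The bone marrow-derived levels were 419, 423 and 479.8 CPM at day 0, 2326, 2288 and 2404 at day 3, 1632, 1576 and 1662 at day 6 and 1369, 1306 and 1256 at day 12. Among the 9 enzymes it had the largest bone marrow-derived change, 2.41 ± 0.18 at day 3 (adjusted p = 6.61e-10), and it was the one whose iPSC-derived change shrank most by day 12, to -0.75 ± 0.17 (adjusted p = 0.00207). Replicates diverged in the late iPSC-derived groups, where replicate 2 was the highest at days 6 and 12.

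Ldha (chr7:46841475-46855627, forward strand) encodes the lactate dehydrogenase subunit that favours lactate formation. It was 2221, 2087 and 2579 CPM at day 0, 625, 895 and 499 at day 3, 738, 1055 and 659 at day 6 and 1043, 1323 and 1062 at day 12 in iPSC-derived libraries. In bone marrow-derived libraries it was 510.4, 471 and 560.1 CPM at day 0, 1584, 1603 and 1671 at day 3, 1219.6, 1182 and 1313 at day 6 and 1009, 1182 and 943 at day 12. By day 12 the sources overlapped, after starting apart in one direction and lying apart in the other at day 3. The difference between sources was 2.16 ± 0.18 at day 0, -1.27 ± 0.18 at day 3 and 0.13 ± 0.17 at day 12 (adjusted p = 1.46e-09, 8.15e-06 and 0.739).

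For the other 6 core enzymes, the day 3 changes ranged from -2.31 (Pgk1, phosphoglycerate kinase) to -1.19 (Gpi1, phosphoglucose isomerase) in iPSC-derived macrophages. The bone marrow-derived range was 1.5 (Pgam1, phosphoglycerate mutase) to 2.01 (Pgk1). Gapdh, often used to normalise other assays, was 2265, 2449 and 2357 CPM at day 0 and 623, 842 and 572 at day 3 in iPSC-derived libraries. The bone marrow-derived values were 429, 421 and 513 CPM at day 0 and 1196, 1306 and 1397 CPM at day 3. Its libraries did not overlap in either source, and the changes were -1.79 ± 0.20 and 1.52 ± 0.20 (adjusted p = 3.31e-07 and 3.16e-06). Near-identical copies, 74 of them annotated as pseudogenes, held 3.38% of the reads counted to Gapdh and its copies. For Eno1 the near-identical copies, Eno1b and 2 pseudogenes, held 3.61%. Eno2, the neuronal enolase, was scarce, at 37.2, 45.3 and 21.8 CPM in iPSC-derived day 0 libraries and 7.48, 3.13 and 5.34 CPM in bone marrow-derived ones. It rose in the latter at day 3 (1.95 ± 0.42, adjusted p = 0.00154) and was lower in the former by day 12 (-1.72 ± 0.41, adjusted p = 0.00279), while summed neuron markers were higher in every co-culture library than at day 0, and their part was not tested. The iPSC-derived call at day 6 (-1.25 ± 0.40) was lost without day 0 replicate 1 or 2 or day 6 replicate 1 or 2 (log2 -1.20 to -1.02).

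**Figure D4:**
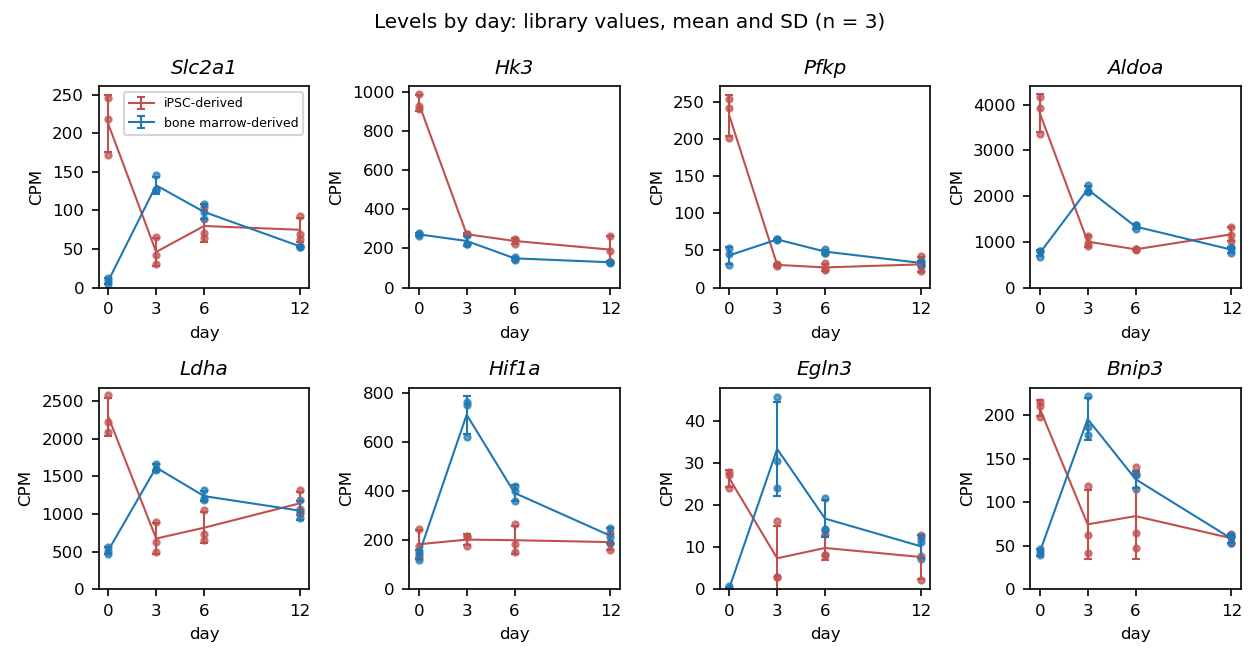
CPM of 8 genes by day in iPSC-derived (red) and bone marrow-derived (blue) macrophages; points are libraries, lines join means and bars are SDs (n = 3). For Slc2a1, Aldoa, Ldha, Egln3 and Bnip3 the red line starts at its highest and the blue line peaks at day 3, while for Hif1a the blue line peaks at day 3 and the red points of all days overlap.

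Lactate leaves cells through monocarboxylate transporters. Slc16a3 (chr11:120948480-120960868, forward strand), which encodes the exporter MCT4 and is a HIF target, was 206, 212 and 158 CPM in iPSC-derived day 0 libraries, 38.3, 57.9 and 16.8 at day 3, 47.5, 122 and 32 at day 6 and 49.0, 90.9 and 45.6 at day 12. In bone marrow-derived libraries it was 28.2, 14.7 and 16.4 CPM at day 0, 255, 227 and 270.1 at day 3, 138, 116 and 144 at day 6 and 70.5, 72.9 and 59.8 at day 12. All bone marrow-derived co-culture libraries exceeded their day 0, and all iPSC-derived ones were below theirs. The day 3 changes were -2.35 ± 0.43 and 3.67 ± 0.46 (adjusted p = 5.14e-04 and 7.06e-06). The iPSC-derived change at day 6, -1.52 ± 0.42 (adjusted p = 0.011), turned on replicates, with replicate 2 above the others: it was -2.27 without day 6 replicate 2, and the call was lost without day 6 replicate 1 (log2 -1.32). Slc16a1, which encodes the more widely expressed MCT1, rose in bone marrow-derived macrophages from 4.42 ± 1.85 CPM at day 0 to 19.5 ± 4.95 CPM at day 12 (2.14 ± 0.38, adjusted p = 1.33e-04). It passed no test in iPSC-derived macrophages, with 23.6 ± 7.39 CPM at day 0 and 17.5 ± 5.37 CPM at day 12.

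Pdk1, the kinase that shuts pyruvate dehydrogenase and so keeps pyruvate out of mitochondria, gave 119.6, 105 and 149 CPM at day 0 and 70.7, 87.7 and 35.5 at day 3 in iPSC-derived libraries. The bone marrow-derived values were 49.1, 87.2 and 78.5 CPM at day 0 and 143, 117 and 118 CPM at day 3. Neither source overlapped its day 0, in opposite directions, and the iPSC-derived change passed the test while the other did not (-0.95 ± 0.30, adjusted p = 0.0279, against 0.82 ± 0.30, adjusted p = 0.0601). The fall was not called without day 0 replicate 1 or 3 or day 3 replicate 1 or 3 (log2 -1.02 to -0.67). The difference of the changes was -1.76 ± 0.42 (adjusted p = 0.00378).

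Hif1a (chr12:73901375-73947530, forward strand) encodes HIF-1α, whose protein level is set mainly by its destruction, so RNA does not show its activity. Its RNA was 245, 174 and 130.3 CPM in iPSC-derived day 0 libraries, 217, 212 and 178 at day 3, 183, 264 and 152 at day 6 and 187, 228 and 161 at day 12. In bone marrow-derived libraries it was 143, 121 and 156 CPM at day 0, 764, 624 and 752 at day 3, 422, 358 and 399.6 at day 6 and 251, 190.2 and 213 at day 12. The iPSC-derived groups overlapped throughout, whereas the bone marrow-derived day 3 libraries stood clear of all others. The bone marrow-derived rise was 2.35 ± 0.21 at day 3 (adjusted p = 9.67e-09), the iPSC-derived value was 0.14 ± 0.20 (adjusted p = 0.686), and the changes differed by -2.21 ± 0.29 (adjusted p = 2.88e-06). The call at day 12 (0.64 ± 0.20) was lost without bone marrow-derived day 0 replicate 2 or day 12 replicate 1 (log2 0.53 to 0.55). A gene on the opposite strand shares 5.6% of the exon bases of Hif1a, and counting did not use strand.

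Egln1 and Egln3 encode the oxygen-sensing hydroxylases PHD2 and PHD3, and Egln3 is itself induced by HIF. Egln3 (chr12:54178981-54203860, reverse strand) had 24.1, 27.1 and 27.9 CPM in iPSC-derived day 0 libraries, 2.87, 16.1 and 2.99 at day 3, 8.01, 13.1 and 8.20 at day 6 and 12.8, 2.27 and 7.79 at day 12. It was nearly absent from bone marrow-derived macrophages at day 0, where the 3 libraries held 0, 0 and 5 counts, and it then reached 30.4, 23.9 and 45.7 CPM at day 3, 14.2, 14.4 and 21.7 at day 6 and 11.2, 12.2 and 7.11 at day 12. Every bone marrow-derived co-culture library lay above every day 0 one. The fitted log2 rise of 7.22 ± 0.89 (adjusted p = 2.28e-06) rests on those few counts, and was 11.25 without day 0 replicate 3. Its iPSC-derived change at day 3, -1.85 ± 0.60 (adjusted p = 0.0308), was -3.15 without day 3 replicate 2. That call was lost without any 1 of the other 5 libraries (log2 -1.92 to -1.47), and the call at day 12 (-1.80 ± 0.59) without any 1 library but day 12 replicate 1 (log2 -1.86 to -1.34). The day 12 call was also lost with the replicate number as a block (log2 -1.72). Egln1 was low, at 8.54, 12.8 and 12.4 CPM at day 0 and 4.31, 3.97 and 8.61 at day 3 in iPSC-derived libraries, which overlap. It was called lower there (-1.0 ± 0.31, adjusted p = 0.0223), though not without day 0 replicate 2 or 3 or day 3 replicate 1 or 2 (log2 -0.92 to -0.79) nor without the filter on low counts (log2 -0.97). It rose from day 3 to day 12 (1.61 ± 0.31, adjusted p = 0.00131).

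P4ha1 and P4ha2 encode collagen prolyl 4-hydroxylase subunits, both HIF targets. P4ha1 was 58.0, 56.8 and 62.4 CPM in bone marrow-derived day 0 libraries, 254, 214 and 231 at day 3, 313, 277 and 296 at day 6 and 243, 229 and 221 at day 12. Its levels were above day 0 at each later day without overlap: the change was 1.98 ± 0.12 at day 3 and 1.97 ± 0.12 at day 12 (adjusted p = 3.13e-11 and 4.54e-11), with -0.01 ± 0.11 between them (adjusted p = 0.968). In iPSC-derived libraries P4ha1 was 217, 193 and 231 CPM at day 0, 105, 105 and 115 at day 3, 154, 190.5 and 163 at day 6 and 181, 197 and 198 at day 12. The day 3 libraries were lowest, and day 12 overlapped day 0. The day 3 fall was -0.98 ± 0.12 (adjusted p = 9.36e-07), and the small fall called at day 6 (-0.34 ± 0.11) was lost without day 0 replicate 1 or 3 or day 6 replicate 1 or 3 (log2 -0.33 to -0.25), with DESeq-type scaling (-0.30) and without the low-count filter (-0.33). P4ha2 was 1.68, 7.54 and 2.08 CPM at day 0 and 18.4, 28.5 and 41.0 at day 3 in bone marrow-derived libraries, and 43.1, 40.6 and 19.4 CPM at day 0 and 4.82, 5.78 and 9.19 CPM at day 3 in iPSC-derived ones. Neither pair overlapped, with changes of 2.94 ± 0.45 and -2.38 ± 0.43 (adjusted p = 3.22e-05 and 2.48e-04). Without bone marrow-derived day 0 replicate 2, which was the highest of its group, the rise was 3.99.

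Among the other hypoxia-responsive members, Bnip3 fell in one source and rose in the other at day 3. Bnip3 (chr7:138890836-138909519, reverse strand), a mitophagy receptor, was 216, 198 and 210.3 CPM at day 0, 62.5, 119 and 42.0 at day 3, 64.0, 141 and 47.4 at day 6 and 53.0, 59.4 and 63.2 at day 12 in iPSC-derived libraries. The bone marrow-derived values were 38.7, 42.3 and 46.4 CPM at day 0, 178, 187 and 223 at day 3, 132, 115 and 132 at day 6 and 52.6, 62.2 and 59.5 at day 12. Bone marrow-derived libraries were highest at day 3 and the 2 sources overlapped at day 12. Day 3 changes were -1.48 ± 0.31 and 2.20 ± 0.32 (adjusted p = 0.00121 and 1.96e-05), and the bone marrow-derived change at day 12 did not pass the test (0.45 ± 0.31, adjusted p = 0.317). Replicate 2 was the highest iPSC-derived library at days 3 and 6, and the day 6 change of -1.31 ± 0.30 was -1.90 without it.

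Ndrg1, a stress-responsive gene induced by hypoxia, fell in both sources. It was 77.6, 67.2 and 53.1 CPM at day 0 and 21.2, 21.1 and 18.4 at day 12 in iPSC-derived libraries, and 103, 69.9 and 95.9 CPM at day 0 and 31.0, 35.4 and 32.4 CPM at day 12 in bone marrow-derived ones. Neither pair overlapped, and the changes were -1.70 ± 0.22 and -1.45 ± 0.22 (adjusted p = 3.32e-06 and 2.13e-05). Bone marrow-derived Ndrg1 averaged 98.1 ± 15.4 CPM at day 3 (0.13 ± 0.21, adjusted p = 0.745). The fall called there at day 6 (-0.69 ± 0.21) was lost without day 0 replicate 1 or 3 or day 6 replicate 2 or 3 (log2 -0.72 to -0.56) and without scaling factors (-0.56). Genes on the opposite strand share 8.43% of the exon bases of Ndrg1.

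Car9 (chr4:43506966-43513729, forward strand), carbonic anhydrase IX, a widely used hypoxia marker, was lower in iPSC-derived macrophages at every day and was called against day 0 in neither source. It had 64, 34, 26 and 57 counts over the 3 iPSC-derived libraries at days 0, 3, 6 and 12, and 296, 685, 514 and 573 in bone marrow-derived ones. In CPM, bone marrow-derived libraries held 19.1, 11.4 and 6.51 at day 0 and 16.2, 17.3 and 21.3 at day 12, all above the iPSC-derived 0.766, 2.63 and 3.54 CPM at day 0 and 2.52, 0 and 3.64 CPM at day 12. The log2 difference, iPSC-derived over bone marrow-derived, was -2.41 ± 0.66, -4.24 ± 0.71, -4.46 ± 0.73 and -3.16 ± 0.67 at the 4 days (adjusted p = 0.00569, 1.01e-04, 1.17e-04 and 0.0026). With single libraries left out it ranged -2.85 to -1.92 at day 0 and -3.89 to -2.52 at day 12. A gene on the opposite strand shares 9.29% of the exon bases of Car9. Ankrd37, a HIF target of unsettled function, was called against day 0 in neither source and stayed at or under 11.6 CPM. Other genes on the opposite strand share 28.9% of its exon bases.

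Mif, a cytokine and HIF target, was 93.9, 94.0 and 76.2 CPM at day 0, 25.1, 30.6 and 64.8 at day 3, 30.6, 33.2 and 121 at day 6 and 38.8, 28.8 and 48.7 at day 12 in iPSC-derived libraries. Bone marrow-derived libraries held 18.4, 23.4 and 23.8 CPM at day 0, 57.4, 65.1 and 53.4 at day 3, 40.9, 36.3 and 32.5 at day 6 and 51.1, 43.4 and 58.6 at day 12. Replicate 3 stood above the others in the iPSC-derived groups of days 3 and 6. It fell in iPSC-derived macrophages at day 3 (-1.13 ± 0.39, adjusted p = 0.0433) and day 12 (-1.18 ± 0.39, adjusted p = 0.0289) and rose in bone marrow-derived ones at day 3 (1.42 ± 0.40, adjusted p = 0.0137) and day 12 (1.22 ± 0.39, adjusted p = 0.0277). All 4 calls depended on single libraries. They were lost at iPSC-derived day 3 without any 1 library but day 3 replicate 3 (log2 -1.23 to -0.86) and with DESeq-type scaling (-1.11), and at day 12 without day 0 replicate 1 or 2 or day 12 replicate 1 or 2 (-1.18 to -0.99). In bone marrow-derived macrophages they were lost at day 3 without day 0 replicate 1 (1.34) and at day 12 without any 1 library but day 12 replicate 2 (1.11 to 1.29).

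The difference between the sources in their change from day 3 to day 12, within co-culture, was not tested, and each source is given on its own. Bone marrow-derived macrophages had 20 of the 32 genes lower and 0 higher, beside 4.25% and 4.20% of all tested genes. Hif1a (-1.71 ± 0.20, adjusted p = 4.86e-06), Slc16a3 (-1.89 ± 0.42, adjusted p = 0.00606) and Bnip3 (-1.75 ± 0.31, adjusted p = 5.83e-04) had the largest falls that kept their call with every single library left out. Calls were lost without a single library for Eno1 (day 12 replicate 1, log2 -0.66), Eno2 (day 3 replicate 2 or day 12 replicate 1 or 3, -1.48 to -1.40), Pfkfb4 (day 3 replicate 1 or 3 or day 12 replicate 2 or 3, -0.83 to -0.77) and Ldha (any 1 but day 12 replicate 2, -0.65 to -0.56, and with no scaling factors, -0.54).

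In the same interval, iPSC-derived macrophages had 6 genes higher, 0 lower and 26 not called, beside 4.07% and 4.82% of all genes. They were Tpi1 (0.61 ± 0.14, adjusted p = 0.00742), Eno1 (0.62 ± 0.18, adjusted p = 0.0276), Pkm (0.89 ± 0.17, adjusted p = 0.00133), Ldha (0.76 ± 0.18, adjusted p = 0.00663), P4ha1 (0.83 ± 0.12, adjusted p = 4.66e-05) and Egln1. The Eno1 call was lost without day 3 replicate 1 or 3 or day 12 replicate 2 (log2 0.42 to 0.59). When only the 2 groups compared were fitted, 1 of the 6 genes passed, P4ha1.

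The comparison of sources day by day asks whether the 2 kinds of macrophage come to use these genes alike. At day 0, 23 of the 32 genes were higher and 2 lower in iPSC-derived than in bone marrow-derived macrophages, beside 18.9% and 17.1% of all tested genes. The 2 lower ones were Pfkfb4 (-1.0 ± 0.22) and Car9. The call of Pdk1 was lost without iPSC-derived or bone marrow-derived day 0 replicate 1 or 3 (log2 0.61 to 0.89). At day 3, 0 were higher and 27 lower, beside 8.94% and 8.92%. Day 6 gave 1 higher and 19 lower, beside 6.99% and 6.23%, the one higher gene being Hk3 (0.67 ± 0.16, adjusted p = 0.00488). At day 12 there were 2 higher and 3 lower, beside 5.03% and 4.74%, and 27 of the 32 passed no test. The median absolute difference was 2.22, 1.30, 0.70 and 0.20 on the log2 scale at days 0, 3, 6 and 12. Of the 23 genes that were higher at day 0, 18 were lower at day 3, where 8.09% of all 2829 tested genes higher at day 0 were. At day 12, 21 of the 23 passed no test, and nor did 81.3% of those 2829.

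The 5 calls of day 12 were Aldoa (0.49 ± 0.12, adjusted p = 0.00678) and Hk3 (0.58 ± 0.16, adjusted p = 0.0179) on the higher side, with Pfkfb4 (-0.80 ± 0.22, adjusted p = 0.0189), Ndrg1 (-0.70 ± 0.22, adjusted p = 0.0427) and Car9 on the lower. Those of Aldoa and Car9 were kept with every single library left out. Hk3 was lost without iPSC-derived day 12 replicate 3 or any 1 bone marrow-derived day 12 library (log2 0.32 to 0.60), Pfkfb4 without iPSC-derived replicate 2 or bone marrow-derived replicate 1 or 3 (-0.80 to -0.51), and Ndrg1 without any 1 of the 6 libraries (-0.74 to -0.61). Without scaling factors Aldoa and Hk3 did not pass (log2 0.26 and 0.38), nor did Ndrg1 without the low-count filter (-0.67). When only the groups compared were fitted, none of the 5 passed. At day 6, 13 of the 20 calls were kept with every library left out, and the count fell to 13 without bone marrow-derived day 6 replicate 3. The 7 others were Pfkl, Gapdh, Pgk1, Eno1, Ldha, P4ha2 and Ankrd37. At day 3, 24 of 27 were kept, and Pdk1, Egln3 and Ankrd37 were not. The log2 range without the library was -1.01 to -0.69 for Pdk1 (iPSC-derived replicate 3, bone marrow-derived replicate 1 or 3), -1.90 to -1.81 for Egln3 (iPSC-derived replicate 1 or 3, bone marrow-derived replicate 3) and -2.12 to -1.71 for Ankrd37 (iPSC-derived replicate 1 or 3, bone marrow-derived replicate 2 or 3).

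**Figure D5:**
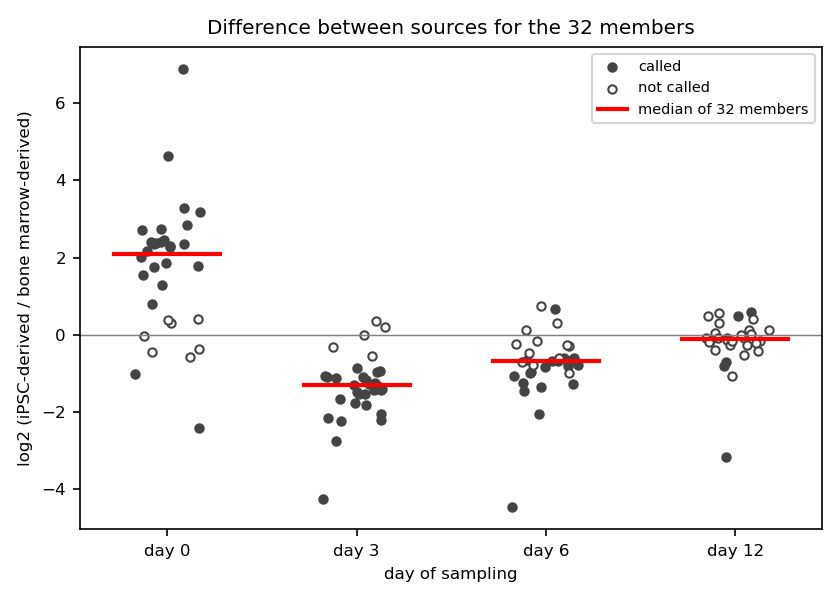
Log2 difference between iPSC-derived and bone marrow-derived macrophages for each of the 32 genes at each day; filled points passed the test and the red bar is the median of the 32 genes. The median lies at 2.08 at day 0, -1.30 at day 3, -0.68 at day 6 and -0.11 at day 12.

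Related genes that are no members were counted from fixed lists. Of 31 other tested genes of glycolysis and pyruvate handling, 4, 4 and 3 were higher and 7, 9 and 8 lower in iPSC-derived macrophages at days 3, 6 and 12, with medians of 0.09, -0.04 and -0.22. In bone marrow-derived macrophages 8, 6 and 5 were higher and 3, 3 and 6 lower, with medians of 0.20, 0.00 and -0.11. Over all tested genes, 11.2%, 14.3% and 14% were higher and 8.14%, 11% and 10.7% lower in iPSC-derived macrophages. The bone marrow-derived shares were 11.9%, 12.7% and 14.7% higher and 6.61%, 6.89% and 9.08% lower. Ldhb, the lactate dehydrogenase subunit that favours pyruvate, rose in both sources: it was 16.3, 11.8 and 10.8 CPM at day 0 and 56.8, 41.7 and 74.9 at day 12 in iPSC-derived libraries, and 18.2, 10.2 and 10.4 CPM at day 0 and 28.9, 53.3 and 49.9 CPM at day 12 in bone marrow-derived ones (2.15 ± 0.26 and 1.77 ± 0.26, adjusted p = 1.14e-06 and 1.52e-05). Pgm1, which links glycogen to glycolysis, fell in iPSC-derived macrophages from 244 to 62.8 CPM (-1.96 ± 0.19, adjusted p = 3.69e-08), as did the glycogen branching enzyme Gbe1, from 106 to 23.1 CPM (-2.20 ± 0.27, adjusted p = 1.26e-06). Pdp1, the phosphatase that switches pyruvate dehydrogenase on, fell in both sources by day 12 (-2.03 ± 0.34 and -2.04 ± 0.34, adjusted p = 8.42e-05 and 6.62e-05). Unlike Pdk1, the pyruvate dehydrogenase kinase genes Pdk4 and Pdk2 were higher in iPSC-derived macrophages at day 12 (7.77 ± 1.64 and 1.09 ± 0.34, adjusted p = 0.00296 and 0.0196). Pdk4 was scarce, with 161 counts in all, spread over 9 libraries. Mpc1, a subunit of the mitochondrial pyruvate carrier, fell in bone marrow-derived macrophages from 93.4 to 23.9 CPM (-1.96 ± 0.26, adjusted p = 4.59e-06). Slc2a6, a lysosomal hexose transporter, rose there from 18.2 to 95 CPM (2.38 ± 0.44, adjusted p = 3.68e-04).

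Genes of mitochondrial fuel use were counted in the same way. Of 23 genes of the TCA cycle and pyruvate dehydrogenase, 10, 18 and 11 were lower and 0 higher in iPSC-derived macrophages at days 3, 6 and 12 (medians -0.39, -0.60 and -0.47). In bone marrow-derived macrophages 1, 1 and 2 were higher and 2, 2 and 4 lower (medians 0.04, 0.07 and -0.04). Over all tested genes, 11.2%, 14.3% and 14% were higher and 8.14%, 11% and 10.7% lower in iPSC-derived macrophages. The bone marrow-derived shares were 11.9%, 12.7% and 14.7% higher and 6.61%, 6.89% and 9.08% lower. The test of the difference between sources called 8, 11 and 7 of the 23 genes lower and 1, 0 and 1 higher. Of all tested genes, it called 11.5%, 11.1% and 11% lower and 9.03%, 8.62% and 9.07% higher. At day 0, 18 of the 23 were higher and 1 lower in iPSC-derived than in bone marrow-derived macrophages, beside 18.9% and 17.1% of all tested genes. Pdhb, a pyruvate dehydrogenase subunit, fell in iPSC-derived macrophages from 194, 215 and 138 CPM to 80.7, 74.4 and 82.5 CPM without overlap (-1.20 ± 0.14, adjusted p = 9.68e-07). Idh3a, an isocitrate dehydrogenase subunit, rose in bone marrow-derived macrophages from 22.3, 17.4 and 16.7 to 63.1, 66.6 and 58.2 CPM (1.74 ± 0.18, adjusted p = 1.12e-07), and Fh1, fumarate hydratase, fell there (-1.02 ± 0.15, adjusted p = 1.32e-05). Pck2, the mitochondrial enzyme that makes phosphoenolpyruvate, was 295, 309.7 and 181 CPM at day 0 and 42.1, 41.2 and 45.2 at day 12 in iPSC-derived libraries (-2.61 ± 0.22, adjusted p = 4.72e-09). In bone marrow-derived macrophages it rose from 55.5, 55.2 and 50.3 CPM to 91.1, 75.9 and 76.3 CPM (0.60 ± 0.21, adjusted p = 0.0415). It was 1 of 4 tested gluconeogenesis genes. Of these 4, 0, 0 and 1 were higher and 1, 1 and 1 lower in iPSC-derived macrophages at days 3, 6 and 12. In bone marrow-derived macrophages 0, 0 and 2 were higher and 0, 0 and 1 lower. At day 12, 14% and 10.7% of all tested genes were higher and lower in iPSC-derived macrophages, and 14.7% and 9.08% in bone marrow-derived ones. G6pc3 was higher in iPSC-derived macrophages at day 12 (0.65 ± 0.17, adjusted p = 0.0057). In bone marrow-derived ones at day 12, Pcx, pyruvate carboxylase, was also higher (2.12 ± 0.72, adjusted p = 0.035) and Slc37a4, the glucose 6-phosphate transporter, lower (-0.79 ± 0.28, adjusted p = 0.0439).

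Of 16 regulators of HIF, 3, 2 and 2 were higher and 1, 0 and 0 lower at days 3, 6 and 12 in iPSC-derived macrophages. There, 11.2%, 14.3% and 14% of all tested genes were higher and 8.14%, 11% and 10.7% lower. In bone marrow-derived macrophages 2, 4 and 3 of the regulators were higher and 0, 0 and 1 lower. Of all tested genes, 11.9%, 12.7% and 14.7% were higher there and 6.61%, 6.89% and 9.08% lower. Epas1, which encodes HIF-2α, rose in iPSC-derived macrophages from 16.1, 9.41 and 31.5 CPM at day 0 to 50.5, 44.8 and 67.9 CPM at day 12 (1.52 ± 0.34, adjusted p = 0.00165), while its bone marrow-derived level was 4.73 ± 1.74 and 6.17 ± 0.953 CPM. Vhl, the ligase subunit that marks HIF-1α, rose in bone marrow-derived macrophages from 24.8 ± 2.78 to 61.1 ± 2.56 CPM (1.30 ± 0.24, adjusted p = 2.05e-04).

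Of 30 tested hypoxia-responsive genes outside the 32, 0, 3 and 2 were higher and 5, 6 and 7 lower in iPSC-derived macrophages at days 3, 6 and 12 (medians -0.15, -0.01 and 0.03), and 7, 8 and 6 were higher and 4, 4 and 6 lower in bone marrow-derived ones (medians 0.62, 0.53 and 0.35). Over all tested genes, 11.2%, 14.3% and 14% were higher and 8.14%, 11% and 10.7% lower in iPSC-derived macrophages. The bone marrow-derived shares were 11.9%, 12.7% and 14.7% higher and 6.61%, 6.89% and 9.08% lower. Ero1a, an endoplasmic reticulum oxidase, fell in iPSC-derived macrophages from 493, 411 and 197 CPM to 36.1, 44.9 and 32.9 CPM (-3.27 ± 0.30, adjusted p = 3.37e-08). Vegfa, the angiogenic factor and a classical HIF target, was 13.9, 18.6 and 14.8 CPM in bone marrow-derived libraries at day 0, 17.3, 26.2 and 22 at day 3 and 3.51, 3.57 and 5.22 at day 12. Its day 3 and day 0 libraries overlapped, and by day 12 it had fallen (-1.94 ± 0.45, adjusted p = 0.00231). Adm, adrenomedullin, had 0 counts in the bone marrow-derived day 0 libraries and 92 in all at day 12 (adjusted p = 1.94e-04). Bhlhe40, a transcriptional repressor, fell in iPSC-derived macrophages (-1.62 ± 0.29, adjusted p = 1.76e-04), and Tfrc, the transferrin receptor, fell by day 12 in both sources (-1.66 ± 0.44 and -2.55 ± 0.45, adjusted p = 0.00839 and 2.84e-04).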

How the data were processed

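RNA from 24 macrophage libraries, each 2 ng of total RNA amplified with a SMART-seq v2 protocol per the labels' protocols, was sequenced in pairs. The authors aligned reads with STAR to mm10 (GRCm38) per the submitters' processing notes, and counted fragments per gene with featureCounts 1.5.0-p1 on GENCODE vM9 per the file headers. The deposited values are raw counts per gene, without strand and without reads shared between genes. Symbols were found for 47224 of 47643 identifiers; the other 419 held 0.0635% of counts. Counts were scaled with TMM factors (0.885 to 1.11) and tested with edgeR 4.0.16 (robust quasi-likelihood, R 4.3.3) in 1 fit over all 24 libraries, on 15000 genes kept by the filter on low counts (minimum count 10, minimum total 15), with Benjamini-Hochberg adjustment over all genes within each of 15 contrasts and a threshold of 0.05. CPM values use the same scaling, levels per kilobase divide by the deposited gene length, and SE is the log2 fold change divided by the square root of F. Near-identical copies were sought with BLAST 2.17.0 (at least 95% identity over 300 bases) and the GENCODE vM21 annotation. Promoters are from RefSeq (GRCm38.p6). Alternatives were other scalings, no filter, DESeq2 1.42.0, a replicate block, a fit of only the groups compared, and each library left out in turn. The members and lists were chosen with earlier results of these data known. All 32 members are accounted for; from each other list, counts are given with at most 3 genes per direction, those with the largest changes among genes called at day 12 against day 0 in each source, and genes called against most of their list.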

Additional observations from a re-analysis of the deposited data

Results flagged for a closer look

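These results were singled out because the change from day 0 differed between the 2 sources in a direct test of that difference, which called 28 members at day 3, 25 at day 6 and 23 at day 12. Values are log2 changes of iPSC-derived minus bone marrow-derived macrophages at day 3. Among transporters and glycolytic enzymes they were -6.15 for Slc2a1, -1.65 for Hk1, -1.55 for Hk2, -1.60 for Hk3, -2.82 for Gpi1, -2.84 for Pfkl, -3.50 for Pfkp and -1.49 for Pfkfb3. Further along the pathway they were -3.44 for Aldoa, -3.92 for Tpi1, -3.31 for Gapdh, -4.32 for Pgk1, -3.21 for Pgam1, -3.88 for Eno1, -3.03 for Eno2, -4.05 for Pkm and -3.43 for Ldha. Lactate transport and pyruvate control gave -2.06 for Slc16a1, -6.02 for Slc16a3 and -1.76 for Pdk1. The hypoxia-responsive members gave -2.96 for P4ha1, -5.32 for P4ha2, -1.68 for Egln1, -9.08 for Egln3, -3.69 for Bnip3, -1.31 for Ndrg1, -2.21 for Hif1a and -2.55 for Mif. The 4 members without a call at day 3 were Pfkm (-0.73 ± 0.44), Pfkfb4 (-0.44 ± 0.31), Ankrd37 (-2.20 ± 0.95) and Car9 (-1.83 ± 0.93). The Egln3 value rests on 5 counts in the bone marrow-derived day 0 libraries, all in replicate 3, and was -13.11 without that library (-13.11 to -8.53 over all libraries left out in turn). The P4ha2 value ran -6.37 to -4.99 and was -6.37 without bone marrow-derived day 0 replicate 2. With single libraries left out, all 28 day 3 calls were kept. Ndrg1 lost its day 6 call without iPSC-derived day 0 replicate 1 or bone marrow-derived day 0 replicate 2 or day 6 replicate 1 (log2 -0.92 to -0.88), and Hk1 lost its day 12 call without any 1 of 10 of the 12 libraries, the exceptions being replicate 2 of both day 12 groups (log2 -0.96 to -0.76).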

How the results depend on the processing

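No called member reversed under any alternative: of 312 calls over 15 contrasts, 3 were lost with DESeq-type size factors, 5 with no scaling factors, 3 without the low-count filter, 0 with DESeq2, 2 with the replicate block (Egln3 at iPSC-derived day 12 and Ankrd37 between sources at day 6, log2 -2.08) and 23 when only the groups compared were fitted. That last fit gave 1 member in place of 6 from day 3 to day 12 in iPSC-derived macrophages, and 0 in place of 5 between sources at day 12, where fewer libraries estimate the spread. In iPSC-derived macrophages against day 0, that fit also lost the calls of Hk1, Pfkl, Pdk1, Egln1, Egln3 and Mif at day 3. It lost those of P4ha1 at day 6 and of Hk1 and Pfkm at day 12. With 1 library left out in turn, 157 of 2328 calls were lost. The members called then numbered 13 to 20 (20 with all libraries) between sources at day 6, with 13 without bone marrow-derived day 6 replicate 3. Between sources at day 12 they numbered 2 to 4 (5 with all), with 2, 3 and 2 without bone marrow-derived replicate 1, 2 and 3; the cause was not tested. Replicate numbers did not pair libraries throughout: deviations of same-numbered libraries correlated at -0.107 to 0.245 within iPSC-derived groups and -0.031 to 0.039 within bone marrow-derived ones, and each library matched its own number best in 1 of 6 and 2 of 6 pairs of groups. That iPSC-derived pair was days 3 and 12, at 0.153, 0.0732 and 0.2185 for replicates 1, 2 and 3. Days 3 and 6 gave -0.0743, 0.225 and 0.245. A weak pairing among the iPSC-derived co-culture libraries is therefore not excluded. With the replicate block the day 3 counts were 24 and 26 members, as without it, and 9 in place of 6 from day 3 to day 12 in iPSC-derived macrophages. Leaving out the scaling factors moved the median of all genes by -0.18 and -0.12 at iPSC-derived days 3 and 12 and by 0.13 and 0.17 at bone marrow-derived days 6 and 12; DESeq-type factors moved it by at most 0.042. Depth limits the scarcest members: Car9 had 0 to 36 counts in an iPSC-derived library and Ankrd37 had 2 to 99 in any library.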
